A study of Mus musculus with 46 samples.

Results

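The olfactory receptor genes of mouse chromosome 9 were taken as every protein-coding gene of the mm9 build (GENCODE vM1 annotation) whose symbol starts with Olfr on that chromosome. There were 129 of them among 22367 protein-coding genes of the chromosomes examined, and 984 further Olfr genes lay on other chromosomes. A gene was called marked in a library where at least 1 peak touched the stretch from 1 kb upstream to 1 kb downstream of it, which is called its window below. The 2 entries whose symbols end in -ps1, Olfr911-ps1 and Olfr1537-ps1, are typed protein-coding in this annotation and were kept, and 6 Olfr entries of the chromosome that are typed as pseudogenes were left out.

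Olfactory receptors are G protein-coupled receptors of the nose that bind odorants, and their genes form the largest gene family of the mouse. Most of them have a coding sequence without introns and sit in tandem clusters. A mature olfactory neuron expresses a single allele of a single receptor gene, while the rest of the family lies in silent heterochromatin, and most other tissues express few or none of them. The family was therefore taken as a floor for marks of active genes, and expression of its genes in these cells was not examined here. The marks were the histone variant H3.3, which is laid down outside replication at active genes and also at some repeats, histone H3 trimethylated at lysine 4 (H3K4me3), which marks active starts, and at lysine 36 (H3K36me3), which marks transcribed gene bodies.

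The libraries were ChIP-Seq of these 3 marks in mouse embryonic fibroblasts (MEFs) of mid-gestation embryos with GFP inserted at Oct4, which were infected with retroviruses for Oct4, Sox2, Klf4 and c-Myc (OSKM). They covered D0, D3, the Thy-1 sorted fractions D6T-, D6T+, D9T- and D9T+, the SSEA-1 sorted fractions D12S-, D12S+, D16S- and D16S+ (the number is the day of infection and the sign the sorted fraction), and the derived induced pluripotent stem cells (iPSCs). H3K4me3 and H3K36me3 were mapped only in D0, D3, D6T-, D9T-, D12S+, D16S+ and iPSCs. The embryonic stem cell line ES-D3, labelled ESD3, was mapped for H3.3. H3.3 was also mapped in transdifferentiation of MEFs to blood cells by Scl, Lmo2, Runx1 and Bmi1 (MEF, D4, and the cKit+ and cKit- fractions of the end point, after co-culture on OP9 stromal cells). There were 16 H3.3, 7 H3K4me3 and 7 H3K36me3 peak lists, with 1 library per group, so no difference between groups has a replicate check and none was tested. Thy-1- and SSEA-1+ cells were the fractions on the way to pluripotency, each fraction is a mixed sorted population, and the iPSCs and ESD3 each stand for the line or lines harvested.

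The 129 genes formed 2 clusters, 17.4 Mb apart. Cluster 1 held 35 genes over 1.58 Mb, from Olfr24 to Olfr18 (chr9:18559100-20140538). Cluster 2 held 94 genes over 2.48 Mb, from Olfr151 to Olfr986 (chr9:37518857-39995679). The gene models were short and alike, with a median length of 951 bp and a coding length between 915 and 993 bp, and 127 of 129 had a transcript with a single coding exon. Of the genes, 86 were on the plus and 43 on the minus strand. Neighbours lay a median of 23328 bp apart, the closest pair 3988 bp, so that no window overlapped another.

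The sequences below come from peaks that touched receptor windows. Each is cut from within a peak in or beside the named gene, on mm9, 5′ to 3′ on the strand of the gene, with every CG dinucleotide in capitals, since CG density is a measure compared between regions further on. For Olfr983 it lies upstream of the gene and beyond the window that the peak touched (chr9:39902394-39902693, minus strand, H3.3 in D4). For Olfr984 it lies upstream of the start (chr9:39909335-39909634, minus strand, H3.3 in D4). It lies within the coding exon for Olfr986 (chr9:39994956-39995255, plus strand, H3.3 in iPSCs) and for Olfr881 (chr9:37800219-37800518, plus strand, H3K4me3 in D6T-).
Olfr983: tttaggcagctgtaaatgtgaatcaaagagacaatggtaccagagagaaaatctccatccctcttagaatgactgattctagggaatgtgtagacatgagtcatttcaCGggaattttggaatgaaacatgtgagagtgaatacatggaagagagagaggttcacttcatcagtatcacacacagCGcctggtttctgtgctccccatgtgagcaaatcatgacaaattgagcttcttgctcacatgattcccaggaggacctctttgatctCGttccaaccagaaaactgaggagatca
Olfr984: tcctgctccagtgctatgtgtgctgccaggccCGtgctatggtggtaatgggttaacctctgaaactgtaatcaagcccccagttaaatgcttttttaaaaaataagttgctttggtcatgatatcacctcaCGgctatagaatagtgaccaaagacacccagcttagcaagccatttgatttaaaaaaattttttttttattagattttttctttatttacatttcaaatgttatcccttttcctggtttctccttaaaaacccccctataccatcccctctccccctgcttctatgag
Olfr986: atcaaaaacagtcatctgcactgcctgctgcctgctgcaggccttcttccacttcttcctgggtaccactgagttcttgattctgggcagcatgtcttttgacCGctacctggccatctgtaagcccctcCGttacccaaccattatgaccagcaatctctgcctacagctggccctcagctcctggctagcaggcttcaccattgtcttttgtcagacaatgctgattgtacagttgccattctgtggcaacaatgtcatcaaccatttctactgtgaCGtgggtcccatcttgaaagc
Olfr881: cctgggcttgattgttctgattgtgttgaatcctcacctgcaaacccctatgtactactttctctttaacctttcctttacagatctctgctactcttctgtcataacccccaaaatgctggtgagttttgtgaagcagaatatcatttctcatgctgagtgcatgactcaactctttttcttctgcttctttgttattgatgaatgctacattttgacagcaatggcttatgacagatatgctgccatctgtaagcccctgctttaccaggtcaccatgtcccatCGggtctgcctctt
The CG counts of these stretches were 3, 2, 3 and 1 in that order.

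Across 30 libraries the receptor genes were almost free of all 3 marks. Of 129 genes, 122 had no peak of any mark in any library, and 9 peaks were found in 3870 gene and library pairs. H3.3 marked 4 genes (6 of 2064 pairs, 0.291%, 95% Wilson interval 0.133% to 0.633%), and without the D4 library 2 genes (2 of 1935 pairs, 0.103%, interval 0.0283% to 0.376%). H3K4me3 marked 1 gene (1 of 903 pairs, 0.111%, interval 0.0196% to 0.625%), and H3K36me3 marked 2 genes (2 of 903 pairs, 0.221%, interval 0.0608% to 0.804%). No gene carried more than a single mark. The intervals cover counting error only, since the pairs share libraries and neighbouring DNA.

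The same rule called far larger shares of all protein-coding genes in each library. For H3.3 these were 61.2% in iPSCs, 52.1% in ESD3, 43.4% in D16S+ against 56.7% in D16S-, 50.2% in D12S+ against 63.5% in D12S-, 58.3% in D9T- against 55.0% in D9T+, 60.6% in D6T- against 53.1% in D6T+, 57.3% in D3 and 61.9% in D0. In the transdifferentiation libraries they were 53.3% in MEF, 72.1% in D4, 31.8% in cKit- and 33.2% in cKit+. For H3K4me3 they were 70.2% in D0, 69.7% in D6T-, 69.0% in iPSCs, 68.6% in D9T-, 68.2% in D3, 66.0% in D12S+ and, lowest, 51.6% in D16S+. For H3K36me3 they were 50.3% in D9T-, 49.7% in D0, 44.6% in D3, 38.8% in D6T-, 34.7% in iPSCs, 25.6% in D16S+ and 23.5% in D12S+. Against these backgrounds 24 of 30 libraries marked 0 of 129 receptor genes, which allows a share of up to 2.33% taken as 3 counts of 129 (the upper Wilson limit is 2.89%), and H3.3 in D4 marked the most, 4 genes (3.1%). The windows of gene classes differ in length, and a longer window touches a peak more easily. The covered length is therefore given too, beside that of DNA outside gene windows and not of other gene classes. H3.3 peaks covered 0 kb per Mb of receptor windows in 13 of 16 libraries, 0.337 in D12S-, 0.986 in iPSCs and 7.42 in D4, while DNA outside all gene windows was covered at 23.6, 25.1 and 50.1 kb per Mb in those 3 libraries. H3K4me3 covered 0.986 in D6T-, against 9.49 outside gene windows. H3K36me3 covered 0.986 in D0, against 6.14, and 0.986 in iPSCs, against 0.839, so receptor windows were not below that DNA in iPSCs. The other libraries of these marks had 0. For H3K36me3 in D12S+ the DNA outside gene windows had only 0.452, so the 0 there says little.

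**Figure D1:**
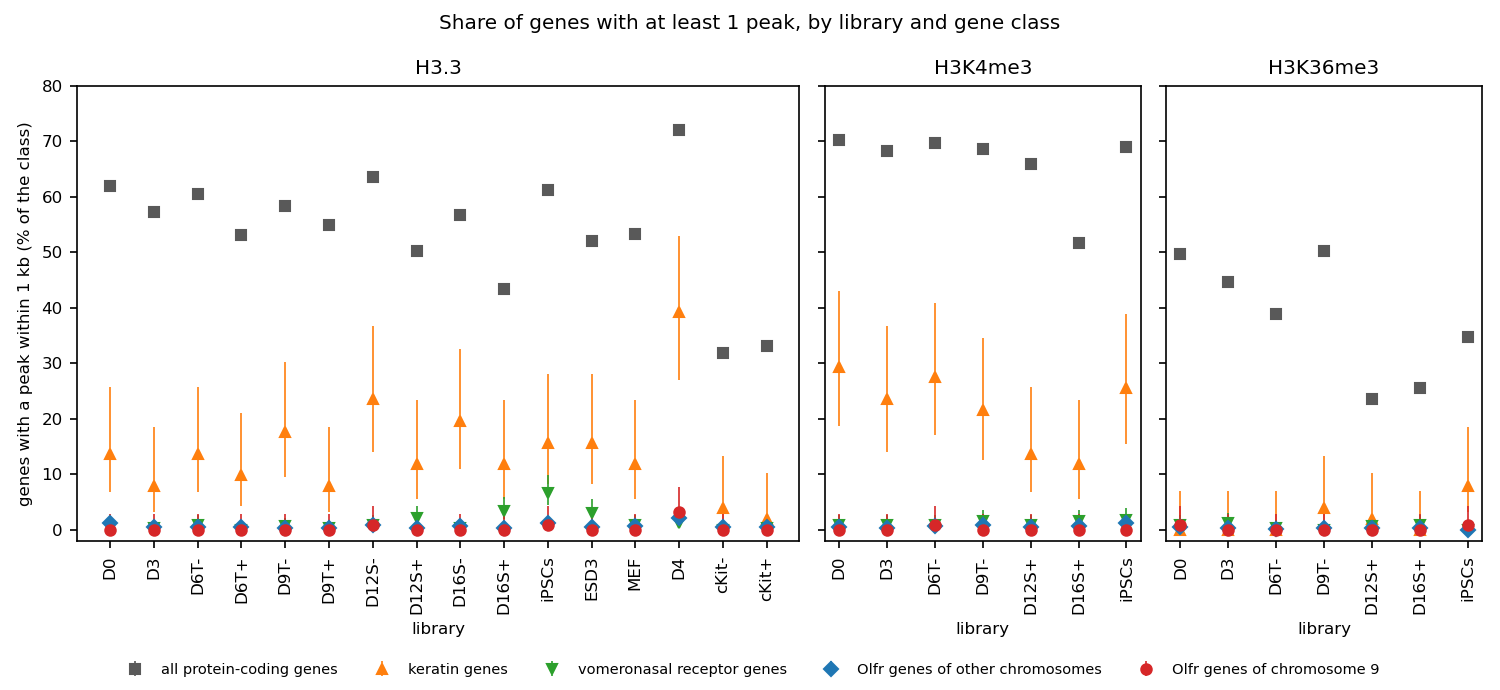
Percent of genes with at least 1 peak in the gene or within 1 kb, for each library (horizontal axis) and mark (panel); points are shares of 5 gene classes and bars their 95% Wilson intervals. The Olfr genes of chromosome 9 sit at 0% to 3.1% in every library, beside 31.8% to 72.1% of all protein-coding genes for H3.3.

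Other receptor families of the nose also had few marks, and keratin genes had higher shares with H3.3 and H3K4me3. The 984 Olfr genes of other chromosomes were marked by H3.3 in 0.203% (D12S+) to 2.03% (D4), by H3K4me3 in 0.305% to 1.12% and by H3K36me3 in 0% to 0.508%. The 331 vomeronasal receptor genes, which serve pheromone detection, were marked by H3.3 in 0% (D6T+) to 6.65% (iPSCs, 22 genes). Keratin genes, which encode filament proteins of epithelia, were marked by H3.3 in 1.96% (cKit+) to 39.2% (D4) of 51 genes, by H3K4me3 in 11.8% to 29.4%, and by H3K36me3 in 0% (0 of 51 in D0, among others) to 7.84% (iPSCs). In iPSCs H3.3 marked 1 of 129 receptor genes of chromosome 9 (0.775%, interval 0.137% to 4.26%), 11 of 984 Olfr genes elsewhere (1.12%, interval 0.625% to 1.99%) and 22 of 331 vomeronasal genes (interval 4.43% to 9.86%). These intervals cover counting error in 1 library only, and neighbouring genes are not independent. Window length also differs between the classes, and the difference between them was not tested.

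The largest set of marks on receptor genes was H3.3 in D4, the fourth day of transdifferentiation, where 4 genes of cluster 2 had a peak. D4 was also the library with the longest list (108179 peaks) and the highest share of tags in peaks of the H3.3 libraries (37.2%), with a lowest score of 4.00 tags per 10 M tags. Its peak at Olfr986 (chr9:39994976-39997058) was 2082 bp long, with a score of 24.4 tags per 10 M tags, above the median of 14.4 in the D4 list. Its fold over input was 2.56 with 60.7 Control Tags, the input tags the caller set against 156 tags of the peak. The peak at Olfr983 (chr9:39901824-39903264) was 1440 bp long and scored 17.2, with a fold of 3.39 and 32.3 Control Tags. That at Olfr984 (chr9:39908933-39910037) was 1104 bp long and scored 12.2, with a fold of 2.57 and 30.3 Control Tags. These 3 genes lie at the distal end of the cluster, and their peaks fell within 95.2 kb. The fourth peak, at Olfr958 (chr9:39358042-39358679), was 637 bp long, was centred on the coding exon and scored 5.49, above 17.8% of the list, with 12.9 Control Tags and a fold of 2.71.

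Olfr986 was the last gene of cluster 2 and had the longest H3.3 stretch of the receptor genes. Its end lay 4.22 kb before Zfp202, a zinc finger gene with H3.3 in 14 of 16, H3K4me3 in 7 of 7 and H3K36me3 in 6 of 7 libraries, and the D4 peak ended 2.84 kb short of that gene. In the 7 H3K4me3 libraries the nearest peak to Olfr986 lay 3.46 kb (D0) to 4.19 kb (D16S+) away, with scores from 13.3 in D16S+ to 151 in D0, and none of these reached the receptor window. The iPSC peak in Olfr986 (chr9:39994856-39995356) was centred on the coding exon, was 500 bp long and scored 5.22, with a fold of 4.09 and 5 Control Tags. H3.3 thus marked Olfr986 in 2 libraries, D4 and iPSCs, and in the other 14 its window was empty, although a peak lay 1.71 kb from the gene in D12S+ (score 6.44).

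Olfr983 was the other gene with H3.3 in 2 libraries. The D12S- peak (chr9:39901972-39902472) lay inside the D4 peak, was 500 bp long and scored 6.95, with a fold of 3.21 and 5.9 Control Tags. Relative to the start its midpoint was at -1079 bp and that of the D4 peak at -1401 bp, where minus is upstream. Neither peak reached the gene itself, as they lay 0.829 kb (D12S-) and 0.681 kb (D4) from it. At Olfr984 the D4 peak was centred at -412 bp. The nearest H3K4me3 peak, in D0, lay 22.9 kb from Olfr983 and 15.0 kb from Olfr984.

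The single H3K4me3 peak was at Olfr881 in D6T- (chr9:37800119-37800619). It was 500 bp long, was centred on the coding exon, 292 bp after the start, and scored 5.13, with 14.5 tags against 3.00 Control Tags and a fold of 4.85. Its score was above 0.179% of the peaks of its list, whose median was 24.9. H3.3 in the same cells had a peak 3.67 kb from the gene, with a score of 10.1.

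The H3K36me3 peaks were at Olfr843 in D0 and at Olfr151 in iPSCs. The Olfr843 peak lay at the 3′ end of the gene and downstream of it, scored 6.31 and had a fold of 4.73 with 3.3 Control Tags. The Olfr151 peak (chr9:37532071-37532571) lay in an intron, scored 6.18 and had a fold of 4.03, next to the limit of 4 for this mark, with 3.7 Control Tags. Both were 500 bp long, the shortest length in those lists, and neither gene had H3K4me3 in any library.

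**Figure D2:**
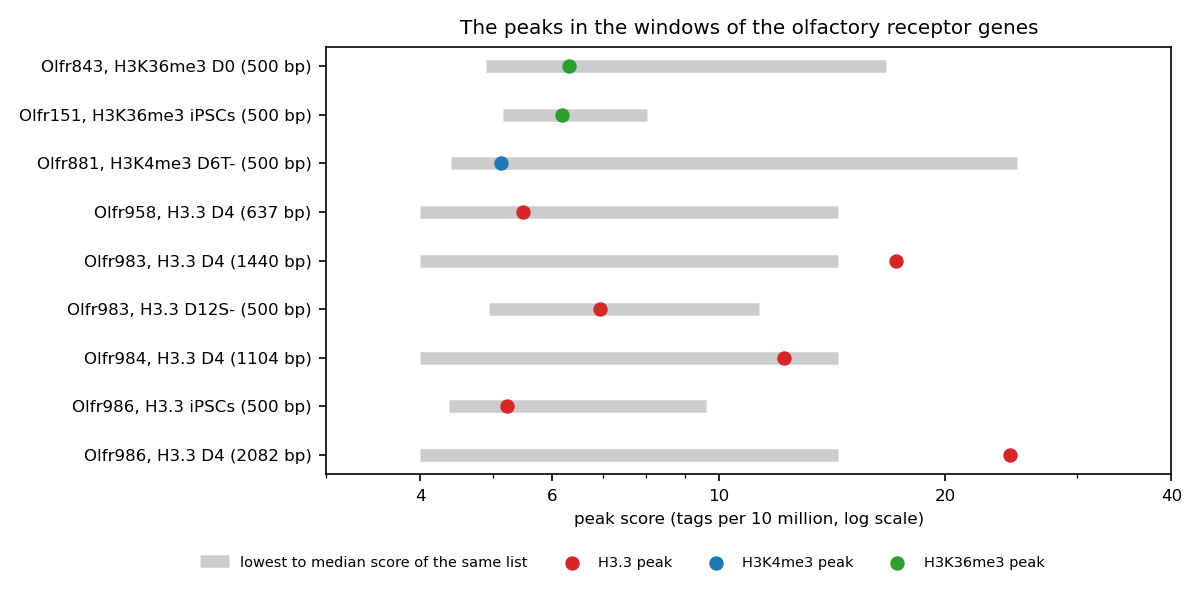
Score of each of the 9 peaks in receptor gene windows (points, tags per 10 M tags, log axis), with gene, library and length at the left; the grey bar runs from the lowest to the median score of that library's whole list. The 5 peaks of 500 bp score 5.13 to 6.95, and 2 D4 peaks lie above their list's median of 14.4.

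Input under the few peaks was close to that of other peaks. Its density in the 9 peaks was between 0.669 and 1.2 times the median of peaks of the same library. The 5 peaks of 500 bp ranked between the 0.179th and the 21.8th percentile of their lists by score. Of the 7 marked genes, 6 were in cluster 2 and 1 in cluster 1.

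Most of the DNA of the receptor windows was single-copy, counted by exact words. Of the 36-base words of the windows, 89.5% occurred once in the mm9 genome, against 92.6% in windows of the other protein-coding genes of the chromosome. Per gene the share ran from 51.1% (Olfr859) to 100% (Olfr835), with a median of 93.7%, and 82 of 129 windows were above 90%. With 50-base words the share was 92.9%. The windows were poor in GC (36.2%) and in CG dinucleotides, at 4.1 per kb against 10.3 in windows of the other genes. The read length is not given in the sources used here, and the authors removed reads that matched several places. Their mapping allowed 2 mismatches, and near copies were not counted here, so how much of the windows the reads could cover was not tested.

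Between the receptor genes the picture was different, and H3.3 varied widely between libraries. DNA of the clusters outside every gene window measured 3.49 Mb, 1.4 Mb in cluster 1 and 2.09 Mb in cluster 2. H3.3 peaks wholly within it numbered 76 in iPSCs, 42 in D16S+, 34 in ESD3 and 25 in D12S+, against 9 in D0, 5 in D3, 4 in D6T- and 1 in D9T-. In the fractions sorted the other way there were 6 in D12S-, 5 in D16S-, 3 in D6T+ and 2 in D9T+. Transdifferentiation gave 5 in MEF, 8 in D4, 1 in cKit+ and 3 in cKit-. The SSEA-1+ fractions and both pluripotent lines thus had 25 to 76 peaks and the 12 other libraries 1 to 9. With 1 library per group this split was not tested.

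D4 had the longest list and 8 peaks here, and the part of list length in these counts was not tested. Relative to all DNA outside gene windows, H3.3 peaks between the receptor genes were 0.843 times as dense in D12S+, 1.53 times in D16S+, 1.19 times in iPSCs and 0.822 times in ESD3. In the 12 other libraries the ratio was between 0.0249 (D9T-) and 0.196 (cKit-), 0.16 in D0 and 0.101 in D4. When every library was cut to its 25637 highest-scoring peaks, 12, 38, 32 and 21 remained in D12S+, D16S+, iPSCs and ESD3, and 0 to 3 in each of the 12 others. In iPSCs the peaks covered 42.4 kb per Mb of cluster 1 and 16.0 kb per Mb of cluster 2 between genes, against 25.1 kb per Mb of all DNA outside gene windows. Cluster 1 had the denser H3.3 in all 4 libraries, with 11.4, 18.5, 33.5 and 12.8 peaks per Mb in D12S+, D16S+, iPSCs and ESD3 against 4.31, 7.67, 13.9 and 7.67 in cluster 2. D16S+, with 42 peaks, had the fewest tags of the H3.3 libraries (18.7 M), and the part of depth in these counts was not tested.

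**Figure D3:**
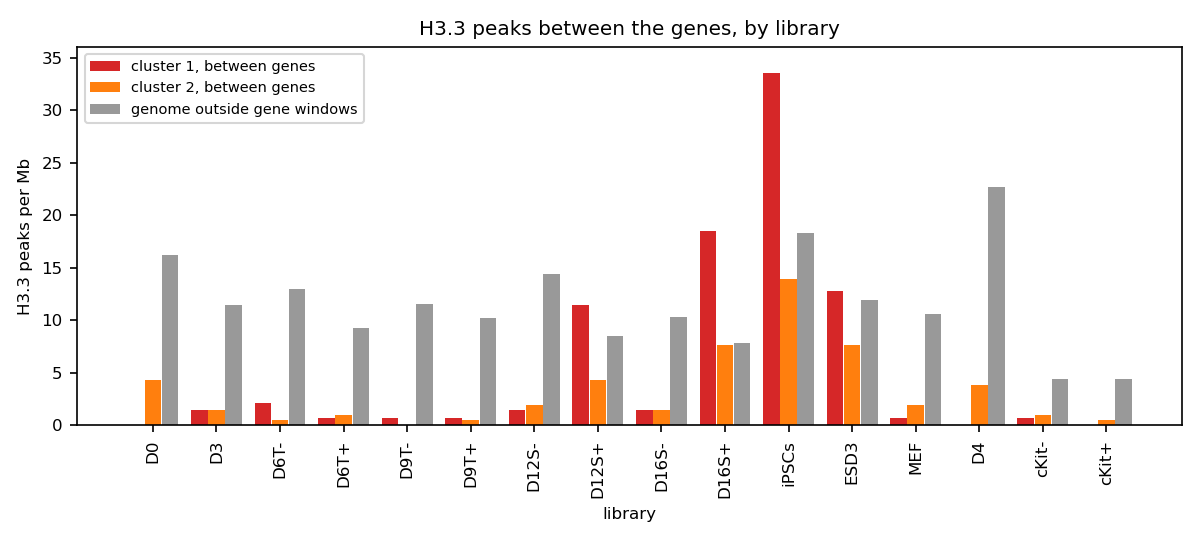
H3.3 peaks per Mb between the genes of each cluster (red and orange bars) and in all DNA outside gene windows (grey), by library. D12S+, D16S+, iPSCs and ESD3 reach 11.4 to 33.5 per Mb in cluster 1, while the 12 other libraries stay at 0 to 2.14 there.

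Part of the sites recurred between those libraries. Merging overlapping H3.3 peaks gave 110 sites between genes, 61 in cluster 1 and 49 in cluster 2. Of these, 83 were seen only in D12S+, D16S+, iPSCs or ESD3, and 14 were in all 4. In a single H3.3 library were 62 of the 110 sites, and 37 of the 76 iPSC sites were in iPSCs alone. D16S+ had 39 sites, of which 33 were among the 76 of iPSCs (84.6% of the former and 43.4% of the latter). D12S+ shared 21 of 24 sites with iPSCs (87.5% and 27.6%), and ESD3 shared 25 of 32 (78.1% and 32.9%). D0, MEF and D4 shared 0 sites with iPSCs out of 9, 5 and 8. How far these libraries share H3.3 peaks in other DNA outside genes was not counted, so the shares have no background beside them. D16S-, the fraction opposite to D16S+, had 3 of its 5 sites among those of iPSCs.

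To show both kinds of site, stretches of 2 sites found in D12S+, D16S+, iPSCs and ESD3 and of 1 found in D0, MEF and D4 are given, on the plus strand of mm9 with CG in capitals. Each is cut from the highest-scoring peak of its site, and 67.7%, 75.6% and 83.7% of the 36-base words of the 3 sites occurred once in the genome. In the same order the sites held 9.33, 8.76 and 10.7 CG per kb. The first 2 were poorer in CG than the pooled sites of their libraries given below, and the third was richer than those of D0, MEF and D4. The examples therefore do not show the CG difference between the pooled sites. The first is in cluster 1, nearest to Olfr867 (chr9:19875732-19876031). The second is in cluster 2, nearest to Olfr914 (chr9:38439877-38440176). The third is in cluster 2, nearest to Olfr985 (chr9:39924224-39924523).
Site near Olfr867: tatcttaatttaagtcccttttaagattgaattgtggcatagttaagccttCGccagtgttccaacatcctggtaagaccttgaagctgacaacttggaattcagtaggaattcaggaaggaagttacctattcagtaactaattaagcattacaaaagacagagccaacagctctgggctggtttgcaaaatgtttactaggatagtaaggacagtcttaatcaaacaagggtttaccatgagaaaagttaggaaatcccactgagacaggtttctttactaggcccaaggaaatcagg
Site near Olfr914: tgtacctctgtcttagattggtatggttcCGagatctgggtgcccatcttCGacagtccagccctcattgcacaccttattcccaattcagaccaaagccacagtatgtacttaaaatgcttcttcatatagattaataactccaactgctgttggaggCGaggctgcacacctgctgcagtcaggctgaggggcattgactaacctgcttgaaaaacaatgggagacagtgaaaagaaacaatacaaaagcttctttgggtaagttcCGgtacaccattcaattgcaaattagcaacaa
Site near Olfr985: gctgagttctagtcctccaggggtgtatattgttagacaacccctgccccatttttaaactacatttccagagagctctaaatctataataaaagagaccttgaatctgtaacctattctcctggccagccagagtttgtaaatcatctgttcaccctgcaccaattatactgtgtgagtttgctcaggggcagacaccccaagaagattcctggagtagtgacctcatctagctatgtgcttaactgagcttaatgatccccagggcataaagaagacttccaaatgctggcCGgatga
At the site near Olfr867 the H3.3 score was 19.1 in D12S+, 17.6 in D16S+ and 35 in iPSCs, and ESD3 had peaks of 13.9 and 6.48. The site near Olfr914 scored 22.9 in D12S+, 24.0 in D16S+, 30.1 in iPSCs and 31.2 in ESD3, and lower in the SSEA-1- fractions, with 7.32 in D12S- and 11 in D16S-. The site near Olfr985 was absent from the lists of those 4 libraries and scored 20 in D0, 13.4 in MEF, 43.8 in D4, 12.3 in D12S-, 9.13 in D9T+, 7.68 in D6T+ and 6.98 in cKit-. It also had H3K4me3 in D0, with a score of 23.4. A further site of D0, D3, MEF and D4, near Olfr876 (chr9:37613861-37617465), scored 19.3 in D0, 5.81 in D3, 6.1 in MEF and 60.8 in D4.

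**Figure D4:**
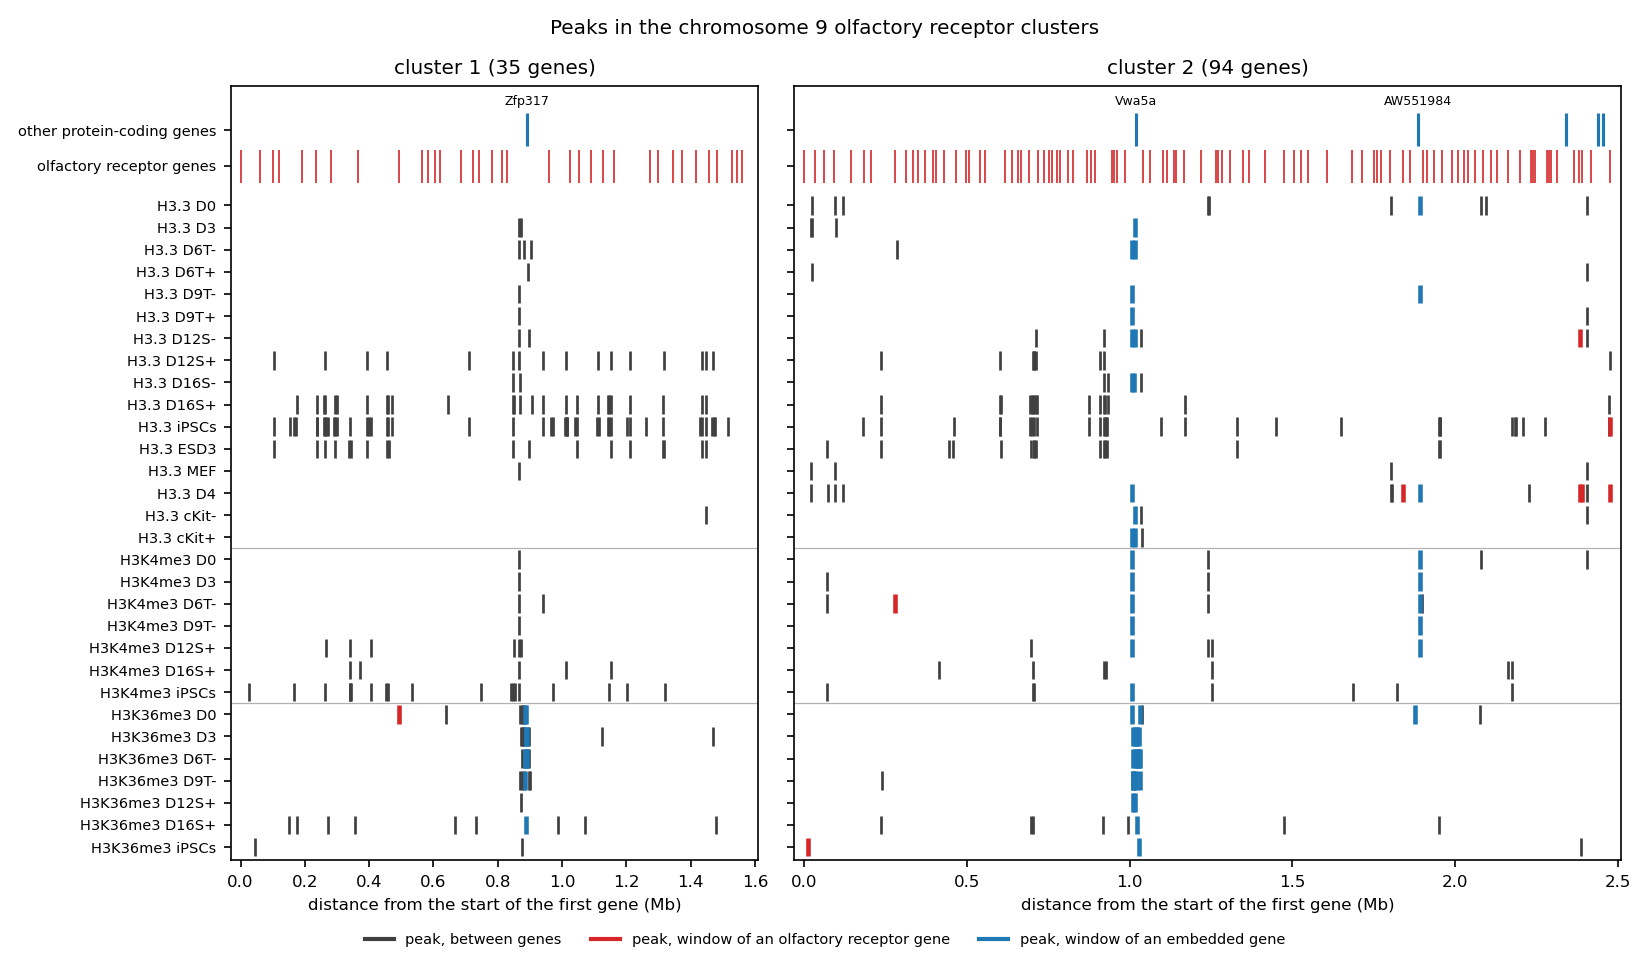
Peaks along both clusters (vertical ticks), 1 row per library, against distance from the start of the first receptor gene in Mb; red ticks touch a receptor window, blue ticks the window of another protein-coding gene and dark ticks neither. Dark H3.3 ticks fill the rows of D12S+, D16S+, iPSCs and ESD3, while 9 ticks of 402 are red.

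DNA under the H3.3 sites of D12S+, D16S+, iPSCs and ESD3 was richer in CG and in repeated words than the receptor genes. Sites of iPSCs held 19.3 CG per kb at 44.8% GC, and 47.3% of their 36-base words occurred once in the genome, while 36.5% occurred more than 10 times. Sites of D12S+, D16S+ and ESD3 were close to this, with 46.8%, 48.8% and 49.6% of words in single copy and 17.0, 17.0 and 16.9 CG per kb. Sites of D0 held 6.57 CG per kb with 85.3% single-copy words, those of MEF 7.39 with 84.0% and those of D4 4.96 with 83.2%. All DNA between the receptor genes held 5.19 CG per kb and 75.8% single-copy words. Elsewhere on the chromosome, iPSC peaks outside gene windows held 14.7 CG per kb with 79.6% single-copy words, and D0 peaks 10.4 with 95%. The part of CG density or copy number in these H3.3 peaks was not tested. Sites seen in any of the 4 libraries had a median distance of 12920 bp from the nearest receptor gene, the closest 2174 bp.

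**Figure D5:**
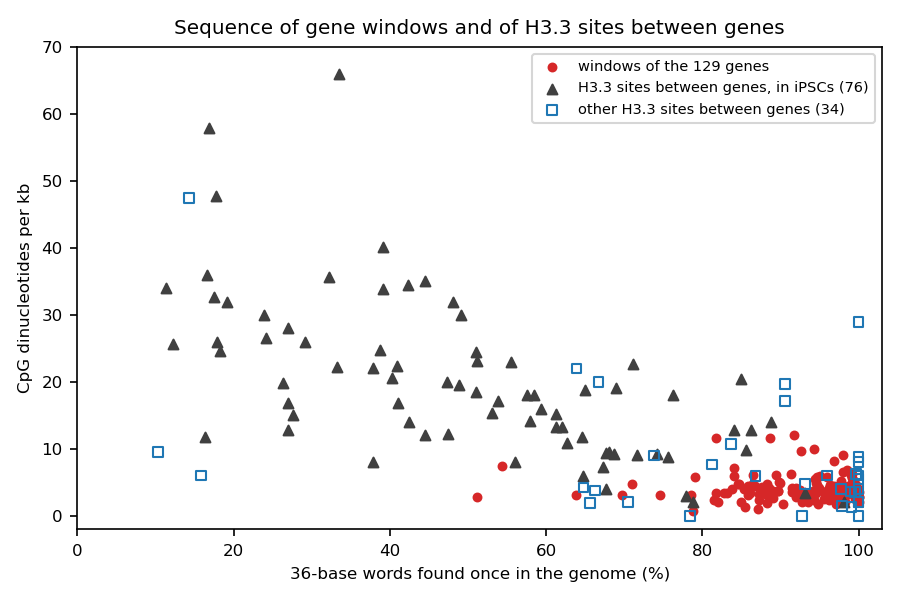
CG dinucleotides per kb against the percent of 36-base words found once in the genome, for the windows of the 129 receptor genes (red), the 76 H3.3 sites of iPSCs between genes (dark triangles) and the other H3.3 sites (open squares). Receptor windows gather at 12.1 CG per kb or less and at 51.1% single-copy words or more, and sites spread from 10.3% single-copy words and up to 65.9 CG per kb.

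Both other marks were also called between the receptor genes. H3K4me3 had 26 peaks in iPSCs, 12 in D16S+ and 9 in D12S+, and 1 (D9T-) to 5 (D6T-) in the 4 earlier libraries. Relative to all DNA outside gene windows, these were 1.09 times as dense in iPSCs, 1.16 times in D16S+ and 0.619 times in D12S+. The ratio was 0.0479 (D9T-) to 0.194 (D6T-) in the 4 earlier libraries. In iPSCs and D16S+ the counts were thus near that background. Of the 26 in iPSCs, 11 overlapped an H3.3 peak of the same cells. The median score of the 26 was 7.34, against 16.7 in the whole list. H3K36me3 had 16 peaks in D16S+, and 1 (D12S+) to 7 (D0 and D3) in the 6 other libraries, where the ratio was 0.362 (D12S+) to 0.672 (D3). The 16 in D16S+ stood apart at 2.86 times the density of all DNA outside gene windows, and 3 of them overlapped an H3.3 peak of D16S+. That list had 1.99% of tags in peaks, and its peaks there had a median length of 500 bp.

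Of 6 protein-coding genes without an Olfr symbol inside the clusters, 3 carried marks. Vwa5a, in cluster 2 (chr9:38525853-38550922), had H3.3 in 9 of 16, H3K4me3 in 6 of 7 and H3K36me3 in 7 of 7 libraries. Its summed H3K36me3 score was 783 in D0, 574 in D9T-, 353 in D3 and 131 in D6T-, and then 14.9 in D12S+, 9.1 in D16S+ and 6.59 in iPSCs. Its H3K4me3 score was 170 in D0 and 11.7 in iPSCs, and no H3K4me3 peak was called in D16S+. AW551984, also in cluster 2 (chr9:39394981-39411988), had H3K4me3 in 5 of 7 libraries, with scores of 115 in D0 and 33.3 in D12S+, and H3K36me3 in D0 (221). Tmem225, 1700001J11Rik and Gm4893 had no peak of any mark.

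Zfp317, a zinc finger gene in cluster 1 (chr9:19445668-19452492), had H3K36me3 in 5 of 7 libraries but no H3.3 or H3K4me3 in its annotated window. A site 18.4 kb upstream of its annotated start (chr9:19426533-19427292) had H3K4me3 in 7 of 7 and H3.3 in 8 of 16 libraries. Its H3K4me3 score ran from 35.1 in D16S+ to 124 in D6T-, with 88.8 in D0 and 47.3 in iPSCs. H3K36me3 peaks lay between this site and the annotated gene in 6 of 7 libraries, with scores of up to 54.3 in D0 and 129 in D9T-. Whether the site is a start of Zfp317 in another annotation was not examined, and these peaks are among those counted above as between genes. Without the stretch from the site to the end of Zfp317, H3.3 peaks between genes numbered 24 in D12S+, 41 in D16S+, 76 in iPSCs and 34 in ESD3, and 0 (D9T-) to 9 (D0) in the 12 other libraries. H3K4me3 then had 0 peaks in D9T-, 4 in D6T- and 25 in iPSCs, and H3K36me3 3 in D0, D3 and D9T-, 0 in D12S+ and 16 in D16S+. The nearest receptor gene, Olfr855, lay 37100 bp from the D0 H3K4me3 peak (midpoint to gene), and its window was empty in all 30 libraries.

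The genes at the cluster borders differed from side to side. On the left of cluster 1, Muc16, a mucin gene, had H3.3 in 0 of 16 and H3K4me3 in 1 of 7 libraries, and on the right Zfp560 had H3.3 in 6 of 16, H3K4me3 in 7 of 7 and H3K36me3 in 5 of 7. On the left of cluster 2, Panx3, a pannexin channel gene, had H3.3 in 1 of 16 libraries and neither other mark, and on the right lay Zfp202. Of 36 protein-coding genes within 500 kb of the clusters, 33 had H3.3, 31 H3K4me3 and 22 H3K36me3 in at least 1 library. Of all protein-coding genes, 80.1% had H3.3, 75.5% H3K4me3 and 58.2% H3K36me3 in at least 1 library, so the H3K36me3 count was near the background. The median distance from a receptor gene to its nearest H3.3 peak was 196 kb in D0, 34.7 kb in iPSCs and 59.2 kb in ESD3, and 437 kb in D6T+.

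Of 16 signal transduction genes that olfactory receptors act through, 15 had H3.3, 12 H3K4me3 and 9 H3K36me3 in at least 1 library, beside the 80.1%, 75.5% and 58.2% of all protein-coding genes given above, so that the last 2 counts were near the background. Gnal and Adcy3, the G protein subunit and the adenylyl cyclase of the odorant cascade, each had H3.3 in 12 of 16, H3K4me3 in 7 of 7 and H3K36me3 in 5 of 7 libraries. Cnga2, the channel subunit that opens at the end of the cascade, had no peak of any mark. Omp, the marker protein of mature olfactory neurons, had H3.3 in 3 libraries, H3K36me3 in 1 and no H3K4me3. Of 4 trafficking genes, Reep1 and Reep6 had H3K4me3 in 7 of 7 libraries, while Rtp1 and Rtp2, which carry receptors to the cell surface, had no peak at all. Of 15 genes tied to receptor choice and silencing, 14 or 15 had H3K4me3 in each library, beside 51.6% to 70.2% of all protein-coding genes. H3.3 was called at 8 to 15 of them, beside 31.8% to 72.1%, and H3K36me3 at 6 to 13, beside 23.5% to 50.3%. Those with H3K4me3 in 7 of 7 libraries included Lhx2 and the Ebf genes, which bind receptor promoters and enhancers. Cbx1, Cbx3 and Cbx5, which encode heterochromatin proteins, were also among them. Lhx2 had H3K36me3 in 0 of 7 libraries.

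The libraries held signal at housekeeping genes, to differing degrees. Of 20 housekeeping genes, 20 had H3K4me3 in each of 7 libraries, 16 to 20 had H3.3 and 10 to 20 H3K36me3. Of all protein-coding genes these marks were called at 51.6% to 70.2%, 31.8% to 72.1% and 23.5% to 50.3%. All 8 fibroblast markers had H3.3 in D0 and 0 in D16S+, beside 61.9% and 43.4% of all protein-coding genes. D16S+ had the fewest tags of the H3.3 libraries (18.7 M), with 4.88% of tags in peaks against 19.1% in D0. The part of this in the 0 was not tested. All 8 pluripotency markers had H3.3 in iPSCs, beside 61.2% of all protein-coding genes. H3K36me3 was called at 0 (D0) to 3 (iPSCs) of the 8 pluripotency markers, beside 49.7% and 34.7% of all protein-coding genes. Of 7 hematopoietic markers found, 3 (cKit+) to 7 (D4) had H3.3, beside 33.2% and 72.1% of all protein-coding genes in those libraries. The median over all 16 H3.3 libraries was 5 of 7, so these counts do not set blood cells apart. Of 9 markers of olfactory neurons, 0 (cKit+) to 5 (D4) had H3.3, beside the same 33.2% and 72.1%. Cnga2, Rtp1 and Rtp2 had none of the marks in any library. Total tags ran from 13.2 to 91.8 M and peaks from 12322 to 108179 per library. The SSEA-1+ fractions had weak H3K36me3 lists, with 1.07% of tags in peaks in D12S+. The H3.3 lists of cKit+ and cKit- were weak too, with 1.65% and 2.31% of tags in peaks. An empty receptor window says less in such lists.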

How the data were processed

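Per the study's methods, the authors mapped reads to mm9 with STAR, removed reads with more than 2 mismatches or several loci, and called peaks with HOMER. Per the file headers, peaks were called in histone style for each library against 1 of 16 input libraries, with no pooling; the inputs themselves were not analysed here. The score is a signal that the authors scaled to 10 M tags. Total Tags and Control Tags are deposited signals, in which the caller scaled either the library or its input. The fold is the deposited ratio of tags to input, at least 2 for H3.3 and 4 for the other marks, and the authors' p-value limit over input was 0.0001. The length is deposited with each peak.

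Here peaks were counted in each gene from GENCODE vM1 with 1 kb on both sides (overlap of at least 1 bp), with Python 3.11.15, pandas and numpy. Input density is score times Control Tags over Total Tags, per kb. Genes less than 500 kb apart form a cluster. Copies of 36- and 50-base words were counted on both strands of the whole mm9 sequence, and for larger regions at every 40th base. Functions were tested on simulated data. The members and lists were chosen with earlier results of these data known, and the sites between genes were described after their counts were seen. The text names every receptor gene with a peak, the one with the longest H3.3 stretch, the border genes and listed genes behind a count; the genes inside the clusters and those beside named sites were chosen after their values were seen. No model was fitted, as each group has 1 library. The sequence of 1 peak is not reported here.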

Additional observations from a re-analysis of the deposited data

How the results depend on the processing

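Of 68 values recomputed under an alternative, 42 stayed within the interval of the reported share or within 1.5 times the reported count. Counting only the gene without flank or using the midpoint of the peak left the shares and counts of marked receptor genes there. Merging windows could not change them, as no window overlapped another. Leaving out peaks over more than 2 times the median input density removed none of the 9 peaks, whose ratios were 0.669 to 1.2. For receptor genes, values under merging and under the input limit are among the 42 but are no check. For H3.3, the gene without flank and the midpoint rule each left 4 pairs and 3 genes, and both lost Olfr983, whose peaks touch only its flank. With 5 kb on both sides, the share of pairs rose to 2.47% for H3.3 (20 genes) and 1.44% for H3K4me3 (7 genes), and H3K36me3 marked 7 genes; a wider window reaches more of the DNA between genes. With all lists of a mark cut to the size of its shortest, receptor genes had 0 peaks of any mark (0 genes, 0%). At a fold of at least 4, 1 gene had H3.3 (0.0484%), and at a fold of at least 8, 0 genes had H3K4me3 or H3K36me3 (0%). Alternatives chosen after seeing the data were the following. Without the stretch by Zfp317, the H3.3 counts of D0, D12S+, D16S+, iPSCs, ESD3 and D4 stayed within 1.5 times. Without the D4 library, H3.3 marked 2 receptor genes (0.103% of pairs). Between the genes there were, with lists of equal size, 0 H3.3 peaks in D0, 12 in D12S+, 32 in iPSCs, 21 in ESD3 and 3 in D4, and at a fold of at least 4, 38 in iPSCs and 0 in D4. The cause of these changes was not tested. No paired analysis was possible because each group has 1 library and no result comes from a test; leaving out a replicate would leave no value. A peak is a call past a threshold, so weaker signal in receptor windows is not detectable in these lists.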
